A study of Homo sapiens with 26 samples.

Results

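Box H/ACA small nucleolar RNAs (genes named SNORA) and Cajal body RNAs (genes named SCARNA) were followed in RNA sequencing libraries of KELLY, a neuroblastoma cell line in which MYCN is amplified. The members were chosen by their names and selected on their measured abundance, since a gene entered only with at least 10 counts summed over all 26 libraries. Of 132 gene names that match, 105 met this minimum, 84 SNORA and 21 SCARNA genes, among 26485 genes in all. Another 27 names held fewer counts, and 11 of these held 0 in every library. Just inside the limit stood SCARNA4, SNORA14A and SNORA16B with 11 counts each and SNORA5B with 13. Just outside it stood SNORA1 with 8 counts, SNORA56 with 6.32 and SCARNA27 and SNORA11B with 6 each.

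The KELLY lines carried a doxycycline-inducible lentiviral vector, FH1UTG, which also encodes GFP. The vector was empty (EV) or produced 1 of 2 short hairpin RNAs against RUNX1T1, a transcriptional co-repressor, called sh4 and shAMB. Each of the 3 lines was kept for 72 h with doxycycline or with DMSO, the solvent, and each of these 6 groups had 3 libraries. A further 8 libraries came from KELLY tumours grown under the skin of immunodeficient mice, 4 labelled control (wild type, control food) and 4 labelled RUNX1T1 knock-out (doxycycline food). The study's methods describe hairpin-carrying cells for such tumours, so that the knock-out is named here only as the label has it. Nothing in the labels says whether replicates were separate cultures, and p-values in culture may then measure technical spread alone.

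H/ACA RNAs fold into paired hairpins, separated by a hinge that holds the H box (ANANNA) and closed by the ACA box near the 3′ end. With the proteins DKC1, NOP10, NHP2 and GAR1 they guide the change of chosen uridines to pseudouridine, SNORA members mostly in ribosomal RNA and SCARNA members in spliceosomal RNAs. The SCARNA members gather in Cajal bodies, nuclear bodies where spliceosomal RNAs mature, and many carry a CAB box (UGAG) that binds WRAP53. Some SCARNA members are instead of box C/D type, which guides 2′-O-methylation with FBL, NOP56, NOP58 and SNU13, or join both types in one RNA. Nearly all human members lie inside host genes and are cut out of their introns.

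The sequences below are those of the members on which the results turn. They are the RefSeq sequences of the DNA sense strand on hg38. Capitals mark an ANANNA in the central stretch of the RNA (the middle 1 of 3 equal parts), an ACA in the last 9 bases and, in SCARNA members, TGAG.
SNORA73A: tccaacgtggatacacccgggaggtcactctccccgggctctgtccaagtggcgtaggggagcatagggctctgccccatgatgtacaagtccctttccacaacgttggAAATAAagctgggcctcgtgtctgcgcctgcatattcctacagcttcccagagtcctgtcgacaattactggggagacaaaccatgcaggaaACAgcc
SNORA63: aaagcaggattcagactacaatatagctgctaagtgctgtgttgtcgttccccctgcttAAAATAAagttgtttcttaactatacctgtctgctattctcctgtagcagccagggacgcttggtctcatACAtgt
SNORA70: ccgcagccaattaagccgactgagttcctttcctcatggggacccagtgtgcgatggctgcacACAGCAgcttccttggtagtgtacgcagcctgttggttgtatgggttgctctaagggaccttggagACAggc
SNORA61: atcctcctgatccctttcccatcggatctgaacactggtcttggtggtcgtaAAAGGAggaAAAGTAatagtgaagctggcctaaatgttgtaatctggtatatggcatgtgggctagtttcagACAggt
SCARNA16: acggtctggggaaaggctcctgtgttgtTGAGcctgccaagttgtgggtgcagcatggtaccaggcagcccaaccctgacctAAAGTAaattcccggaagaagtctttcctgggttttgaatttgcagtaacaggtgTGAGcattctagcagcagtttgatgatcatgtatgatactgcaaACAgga
SCARNA12: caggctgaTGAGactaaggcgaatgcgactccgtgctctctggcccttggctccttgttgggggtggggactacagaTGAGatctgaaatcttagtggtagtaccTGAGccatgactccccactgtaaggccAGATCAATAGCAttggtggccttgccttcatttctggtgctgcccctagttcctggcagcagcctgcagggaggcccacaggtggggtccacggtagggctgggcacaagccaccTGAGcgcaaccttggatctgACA
SCARNA13: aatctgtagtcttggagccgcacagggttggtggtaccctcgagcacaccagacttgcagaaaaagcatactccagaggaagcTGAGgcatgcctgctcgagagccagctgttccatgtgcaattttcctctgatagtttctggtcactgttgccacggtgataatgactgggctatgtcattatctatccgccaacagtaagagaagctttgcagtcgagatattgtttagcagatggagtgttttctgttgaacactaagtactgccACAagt

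SNORA73A (chr1:28507365-28507571, + strand, 207 bases) lies in SNHG3, SNORA63 (chr3:186787299-186787433, +) in EIF4A2, SNORA70 (chrX:154400281-154400415, +) in RPL10 and SNORA61 (chr1:28579764-28579893, -) in SNHG12. SCARNA16 (chr17:77089307-77089493, +) lies in SNHG20, SCARNA12 (chr12:6967337-6967606, -) in PHB2 and SCARNA13 (chr14:95533355-95533629, -) in SNHG10, with GLRX5 on the opposite strand. All 7 overlap an exon of some annotated transcript of the host, so that their reads and those of the host cannot be fully told apart. SNORA73A belongs to the U17 family, which acts in the cleavage of ribosomal RNA precursors rather than in pseudouridine formation. In the 4 SNORA sequences and in SCARNA16 and SCARNA13 the ACA stands 3 bases before the end, while SCARNA12, a mixed-type RNA with 4 TGAG matches, ends on it.

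A further pair is shown because SCARNA9 and its X-linked near copy SCARNA9L are hard to separate by reads. SCARNA9 (chr11:93721514-93721866, +, 353 bases) lies in an intron of CEP295 and SCARNA9L (chrX:20136066-20136413, -, 348 bases) in an intron of EIF1AX. Over the first 120 bases, printed here with TGATGA (the C box core) and CTGA (the D box) in capitals, 114 positions are identical, or 95%.
SCARNA9: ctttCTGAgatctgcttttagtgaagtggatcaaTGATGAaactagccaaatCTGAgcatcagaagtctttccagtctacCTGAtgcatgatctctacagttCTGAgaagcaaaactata
SCARNA9L: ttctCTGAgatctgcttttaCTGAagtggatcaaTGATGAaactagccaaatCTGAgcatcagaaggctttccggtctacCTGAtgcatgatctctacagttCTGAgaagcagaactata
Both values are therefore uncertain, as are those of SNORA11D and SNORA11E, of SNORA59A and SNORA59B, whose members are identical, and of SNORA73A and SNORA73B, which share 26.6% of 20-base words.

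An ACA stood exactly 3 bases before the 3′ end in 71 of 84 SNORA members (84.5%), in 12 of 21 SCARNA members (57.1%) and in 4 of 284 box C/D SNORD genes of RefSeq (1.41%). ANANNA was found in the central stretch of 81 SNORA members (96.4%), of 18 SCARNA members (85.7%) and of 156 SNORD genes (54.9%), so that these letters are common. TGAG was present in 33 SNORA members (39.3%), in 16 SCARNA members (76.2%) and in 249 SNORD genes (87.7%). All motifs were read on the transcribed strand only, and TGAG overlaps CTGA and TGATGA where these share letters. The 12 SCARNA members of plain H/ACA type all had the ACA at that position, and none of the 4 box C/D (SCARNA2, SCARNA7, SCARNA9, SCARNA17) or 4 mixed ones (SCARNA5, SCARNA6, SCARNA10, SCARNA12) did.

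Hosts were found in the tables for 102 of the 105 members, and these lay in 79 genes. More than 1 member was held by 16 hosts, with 39 members among them. SNHG17, a long non-coding RNA gene, held 4, and EIF4A2, KANSL2, SNHG12, TAF1D and TBRG4 held 3 each. Ribosomal protein genes made up 12 hosts with 15 members, and genes of the SNHG (small nucleolar RNA host gene) family 11 hosts with 18 members.

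Members were nearly absent from the culture libraries and plentiful in the xenograft libraries. All members together held 4075.95 counts in the 18 culture libraries and 1313036.24 in the 8 xenograft libraries. Their share of the counts of a library was 0.000356% to 0.000969% in culture and 0.201% to 0.497% in the xenografts, where TPM, which corrects for transcript length, gave 7.71% to 12.7%. A culture library had a count for 29 to 57 members and a xenograft library for 92 to 104, although total counts were alike, at 35115915 to 54736733 in culture and 47346063 to 62378060 in the xenografts. Counting error is therefore wide in culture, where 13 members had 0 counts in all libraries and 62 had fewer than 10 in sum. Growth as a tumour and membership of a separately made table go together in this design and cannot be told apart, so that no test was made between these sets. In tumours as in culture, fewer cells that make an RNA and less RNA per cell cannot be told apart.

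A few long members carried most of this signal. In the xenografts SNORA73A, SCARNA10 and SNORA73B held 64.1% of all member counts and the 10 most abundant members 87.8%. In culture the first 3 members, led by SCARNA12, held 45.0%. The 15 members of 200 bases or more held 71.9% of member counts in the xenografts and 64.2% in culture. The 82 members under 150 bases held 12.4% and 24.5%. With the RefSeq length of SNORA73B, which the table lists as shorter than 200 bases, the longest class had 16 members and 85.3% of member counts in the xenografts and 65.7% in culture. Levels are given in CPM (counts scaled per library to a common total that leaves out 2437 small RNA genes) per kilobase of transcript. This divides by length, but whether capture of the RNAs depended on length was not tested, so that the order of genes may still reflect length. Xenograft medians (CPM per kilobase) were 238 for the longest class, 7.52 for the 8 members from 150 to under 200 bases and 2.01 for the shortest. In culture these medians were 0.189, 0.143 and 0.0390 CPM per kilobase.

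The order of the members by level per kilobase differed in part between both sets. SNORA73A at 4360, SNORA73B at 2940, SCARNA10 at 2597 and SNORA63 at 1420 CPM per kilobase led in the xenografts, while SCARNA12 at 5.41, SCARNA16 at 2.04, SCARNA13 at 1.72, SNORA70 at 1.66 and SNORA63 at 1.57 led over all 18 culture libraries. The place of SCARNA16 came from the shAMB line with doxycycline: over the other 15 libraries it was at 0.878 CPM per kilobase, in place 8, while SCARNA12 at 4.09, SNORA70 at 1.87, SNORA63 at 1.48 and SCARNA13 at 1.26 led. The table gives SNORA73B 158 bases where RefSeq has 205, and over 205 bases its xenograft level was 2266 CPM per kilobase, below SCARNA10. Across the 105 members, which share libraries, depth and length bias, mean CPM in culture and in the xenografts had a Spearman correlation of 0.578, and length and mean CPM one of 0.552 in the xenografts and 0.484 in culture. The 45 members placed in an exon of some host transcript had a median of 10.5 CPM per kilobase in the xenografts. The 53 wholly intronic ones had 1.80, and the 4 that lie partly in an exon had 1.4. Mixed-type SCARNA members held 74.6% of SCARNA counts in the xenografts and 54.8% in culture, box C/D ones 16.6% and 15.4%, and H/ACA ones 7.99% and 27.9%.

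**Figure D1:**
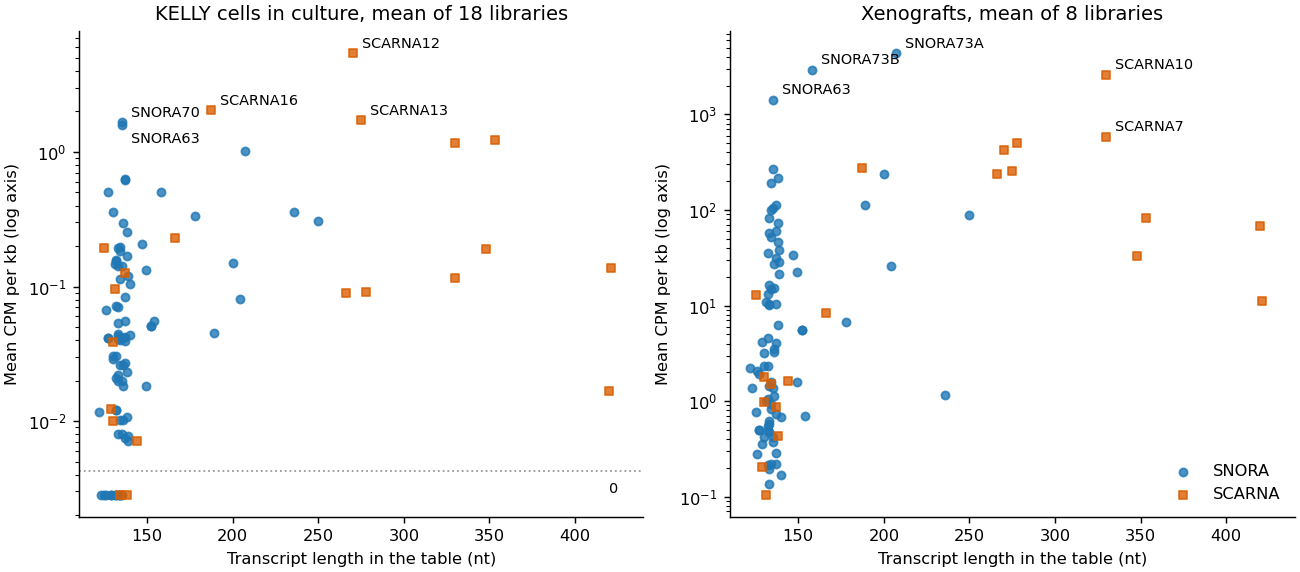
Mean level per kilobase (CPM per kb, log axis) of each of the 105 members against its length in nt, in culture (left, mean of 18 libraries) and in the xenografts (right, mean of 8), with circles for SNORA and squares for SCARNA. Points under the dotted line, at 0, are the 13 members with no count in culture, and SNORA73A, at 4360 CPM per kb, is the highest point in the xenografts.

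Among H/ACA names every one longer than 142 bases reached the minimum of 10 counts, while shorter ones fell on both sides of it. Among box C/D names nearly all of those under the minimum were shorter than 120 bases. Members ranged from 122 to 421 bases with a median of 135, and the 27 names under the minimum from 121 to 142. Of 279 box C/D SNORD genes in the tables, 12 had at least 10 counts, at 126 to 237 bases, and 266 of the other 267 were shorter than 120 bases. The highest of the SNORD genes, SNORD3A (U3), held 9710760.82 counts in all.

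Since RUNX1T1 is the targeted gene, its level checks the labels. It was 41.7 ± 2.32 CPM (SD, n = 3) with DMSO and 37.3 ± 1.01 with doxycycline in the EV line, 34.2 ± 1.06 and 32.7 ± 1.75 in the sh4 line, and 40.4 ± 0.986 and 45.4 ± 1.68 in the shAMB line. It was 38.6 ± 7.45 CPM (SD, n = 4) in control xenografts and 35.4 ± 5.76 in those labelled knock-out. By edgeR's quasi-likelihood test with Benjamini-Hochberg adjustment over all genes, used throughout, the log2 fold change was -0.16 in EV (adjusted p = 0.627), -0.06 in sh4 (0.354), 0.17 in the shAMB line (0.00983) and -0.12 in xenografts (0.554), and with DESeq2's size factors the value in shAMB turned to -0.02. The targeted transcript was thus not called lower in any group, and the conditions below are named by vector and treatment. These RNA values do not measure the protein. The study reports lower RUNX1T1 levels after doxycycline in KELLY cells with either of its hairpins, and loss of RUNX1T1 by immunostaining in KELLY tumours. As a check of the labelled cell type, HAND2, a transcription factor of the sympathetic lineage, was at 248 to 437 CPM in culture and 205 to 296 in the xenografts. The leukocyte gene PTPRC was at most 0.186 CPM in any library. PECAM1, an endothelial gene, reached 1.80 CPM in the xenografts, and the collagen gene COL1A1 reached 37.3 CPM in culture. Mouse cells in the tumours were not assessed.

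In the EV line, where doxycycline induces no hairpin, no member passed the test. Of the 8 members abundant enough to be tested in culture (SCARNA9, SCARNA10, SCARNA12, SCARNA13, SCARNA16, SNORA63, SNORA70 and SNORA73A), edgeR called 0 and DESeq2 0, beside 0.121% of 14905 genes called (0.0134% higher and 0.107% lower), and 1 had an unadjusted p under 0.05. That member, SNORA73A, was at 0.339, 0.430 and 0.317 CPM with DMSO and at 0.124, 0.274 and 0.194 CPM with doxycycline. These groups did not overlap, as for 14.7% of all genes, and the log2 fold change was -0.86 (SE 0.383, adjusted p = 0.647). The median log2 fold change was 0.02 over the 8 members and 0.00 over all genes tested.

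In the shAMB line doxycycline went with higher levels of 4 Cajal body RNAs and a lower level of 1 H/ACA snoRNA. SCARNA12, SCARNA13 and SCARNA9 rose 3.3- to 3.5-fold, SCARNA16 rose 12.1-fold and SNORA70 fell. SCARNA16 passed the filter on low counts only through the doxycycline group, in which it was high. With SCARNA16 counted, 5 of 8 members tested were called, beside 68.8% of all genes tested. Of these members 4 were higher (46.0% of all genes) and 1 was lower (22.8%), which is near the background. The median log2 fold change was 1.10 over the 8 members and 0.21 over all genes. The latter was 0.05 with TMM and 0.02 with DESeq2's size factors. The member median is not given here for those scalings, so that 1.10 is to be read beside 0.21.

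SCARNA16, a guide for spliceosomal U1 RNA, had 8, 1 and 5 counts with DMSO (0.196, 0.0255 and 0.132 CPM) and 62, 93 and 48 with doxycycline (1.46, 1.72 and 1.21 CPM). All 3 doxycycline libraries lay far above the DMSO libraries and above every other culture library, where the highest value was 0.278 CPM. The log2 fold change was 3.60 (SE 0.392, adjusted p = 1.05e-06), 12.1-fold. SCARNA16 passed the filter on low counts through this group, since only 2 of the other 15 libraries reached the cutoff of 0.247 CPM.

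SCARNA12, the most abundant member per kilobase in culture, was at 1.23, 0.816 and 0.842 CPM with DMSO and at 2.92, 3.28 and 3.51 with doxycycline. The groups stood well apart, and the log2 fold change was 1.75 (SE 0.170, adjusted p = 3.21e-07). SCARNA9, a box C/D RNA that guides methylation of U2 RNA, was at 0.270, 0.255 and 0.184 CPM and at 1.06, 0.667 and 0.653 CPM. Its groups did not overlap either, log2 fold change 1.73 (SE 0.328, adjusted p = 0.000267). SCARNA13, an H/ACA guide, was at 0.459, 0.410 and 0.0590 CPM and at 1.24, 1.01 and 1.08 CPM, again without overlap, log2 fold change 1.83 (SE 0.528, adjusted p = 0.00645).

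SNORA70, encoded within RPL10, moved the other way. It had 13, 7 and 18 counts with DMSO (0.319, 0.179 and 0.474 CPM) and 3, 2 and 6 with doxycycline (0.0707, 0.0371 and 0.151 CPM). The highest doxycycline library was just under the lowest DMSO library, and the level fell by 1.95 on the log2 scale (SE 0.463, adjusted p = 0.00168). SCARNA10, of mixed type, had a log2 fold change of 0.47 (adjusted p = 0.171) with groups that did not overlap, SNORA63 one of 0.20 (0.637) and SNORA73A one of -0.11 (0.839), both with overlap. In all, the groups of 6 of the 8 members did not overlap, beside 75.5% of all genes.

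**Figure D2:**
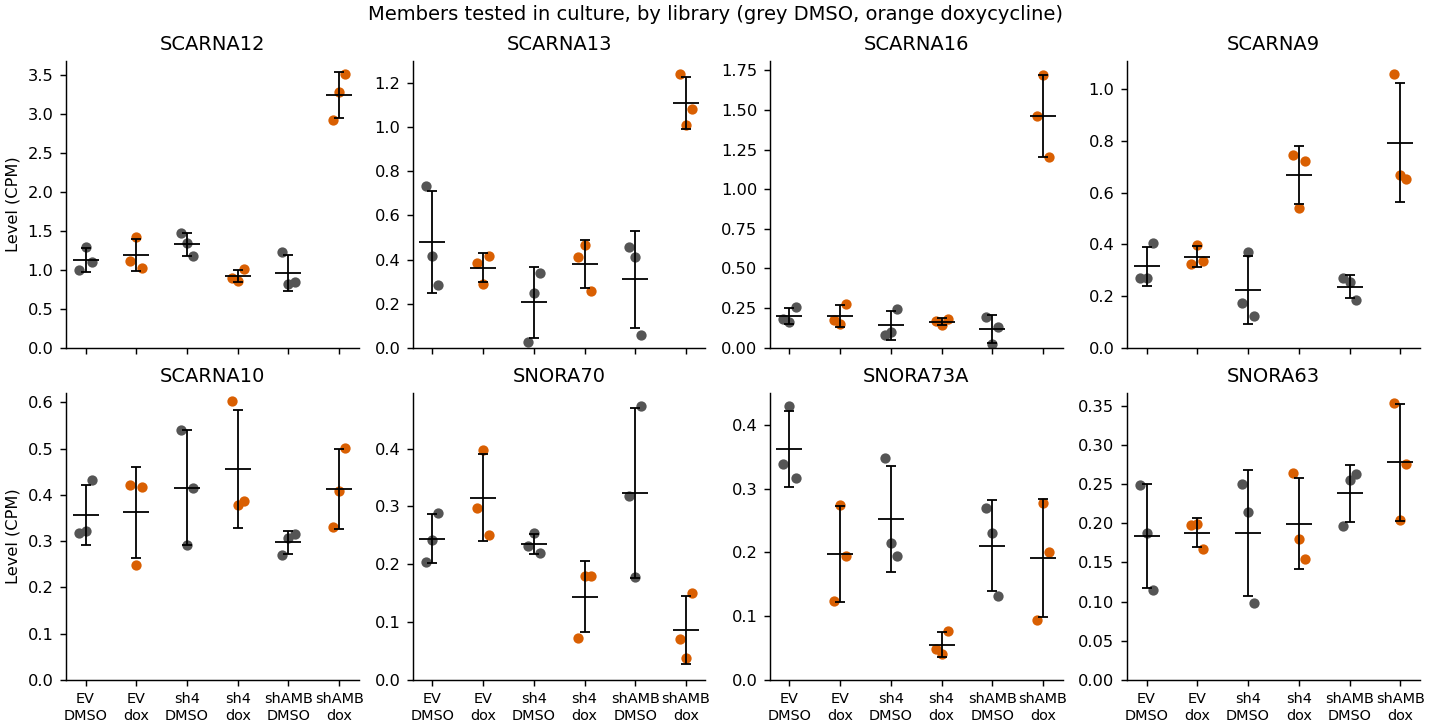
Level in CPM (linear axis from 0) of the 8 members tested in culture, 1 point per library, grey for DMSO and orange for doxycycline, with the mean and SD of the 3 libraries of each group. The shAMB doxycycline libraries are the highest of all for SCARNA16, at 1.21 to 1.72 CPM, and for SCARNA12, at 2.92 to 3.51 CPM.

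The 4 SCARNA members called in shAMB made up most of the sum over all SCARNA members, 76.5% with DMSO and 85.5% with doxycycline, so that the sum is no separate evidence. The SCARNA and SNORA classes were not tested against each other. The SCARNA sum was 2.64, 1.99 and 1.74 CPM with DMSO and 7.98, 7.72 and 7.48 CPM with doxycycline in the shAMB line, and 2.5 to 3.19 CPM in the 12 libraries of the other lines. The sum over SNORA members was 2.03, 2.01 and 1.84 CPM with DMSO and 1.84, 1.78 and 2.21 CPM with doxycycline, within the range of 1.22 to 2.53 CPM over all culture libraries. The 16 SCARNA members too low to be tested summed to 7 to 9 counts in shAMB DMSO libraries (0.179 to 0.221 CPM) and to 21 to 41 with doxycycline (0.527 to 0.966 CPM). Without the filter on low counts, SCARNA1 (2 counts summed over 3 DMSO libraries, 19 with doxycycline), SCARNA22 (1 and 11), SNORA12 (0 and 13) and SNORA74B (0 and 9) were called as well, for 9 of 92 members tested, beside 51.0% of 20572 genes in that fit.

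Other small RNA classes moved with the SCARNA sum in these libraries. Summed SNORD genes were at 1.87 to 2.30 CPM with DMSO and 7.76 to 9.21 with doxycycline in the shAMB line, 7SL and 7SK RNA genes at 0.638 to 1.11 and 4.31 to 5.32, spliceosomal RNU genes at 1.45 to 1.91 and 2.46 to 3.32, and ribosomal RNA genes at 7213 to 8287 and 12878 to 15702 CPM. TERC, the telomerase RNA, which also ends in an H/ACA domain with a CAB box, was at 0.0251 ± 0.0245 CPM with DMSO and 0.279 ± 0.0911 with doxycycline (SD, n = 3), too low to be tested. The part of a shared shift of small RNAs in the SCARNA values was not tested. The SNORA sum did not move with these classes, but it includes SNORA70, which fell. Without SNORA70 it was at 1.37 to 1.83 CPM with DMSO and at 1.74 to 2.06 CPM with doxycycline, with overlap. A contrast between SNORA members and the other classes was not tested.

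**Figure D3:**
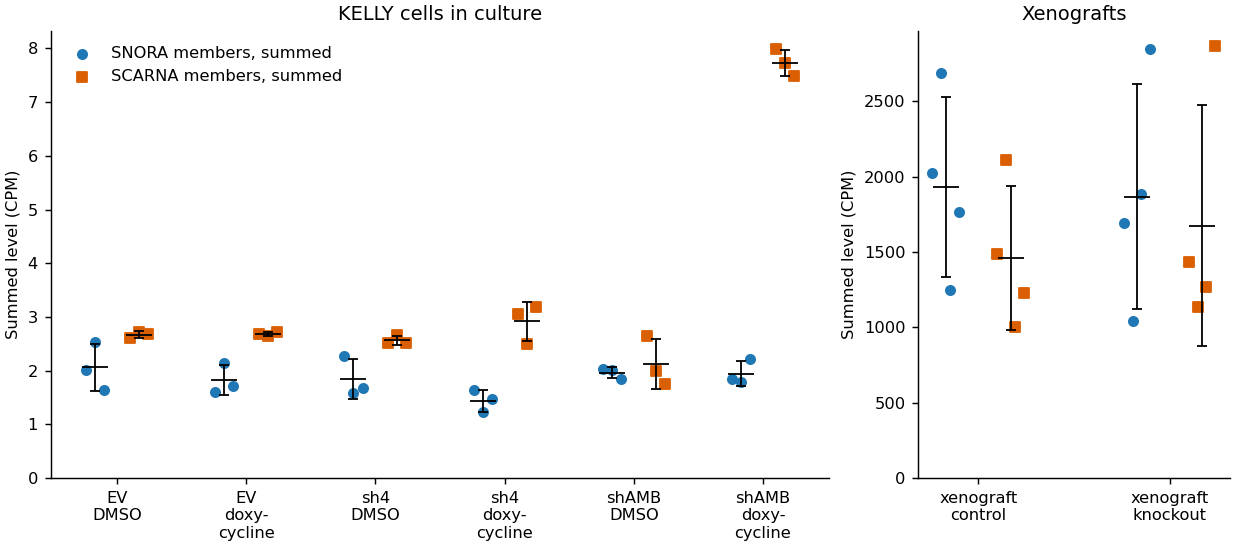
Summed level (CPM, linear axis from 0) of all SNORA members (circles) and all SCARNA members (squares), 1 point per library with the mean and SD of each group, in culture (left) and in the xenografts (right, another scale). The 3 shAMB doxycycline libraries stand alone in the SCARNA sum, at 7.48 to 7.98 CPM, while the xenograft groups overlap in both sums.

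In the sh4 line 3 of 8 members passed the test, beside 42.9% of all genes tested, and only 1 of them changed the same way as in the shAMB line. SCARNA9 rose (1 member higher, beside 28.1% of all genes), and SNORA73A and SCARNA12 fell (2 lower, beside 14.7%). SCARNA9 was at 0.174, 0.370 and 0.122 CPM with DMSO and at 0.747, 0.539 and 0.721 CPM with doxycycline, without overlap, log2 fold change 1.54 (SE 0.325, adjusted p = 0.0012). SNORA73A had 18, 11 and 8 counts with DMSO (0.347, 0.214 and 0.195 CPM) and 2, 2 and 3 with doxycycline (0.0482, 0.0399 and 0.0773 CPM). All 3 doxycycline libraries were below the lowest DMSO library, and the level fell by 2.19 on the log2 scale (SE 0.493, adjusted p = 0.00198).

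SCARNA12 in the sh4 line was at 1.47, 1.34 and 1.17 CPM with DMSO and at 0.891, 0.858 and 1.00 CPM with doxycycline. These groups did not overlap, as for 43.3% of all genes, and the level fell by 0.54 on the log2 scale (SE 0.176, adjusted p = 0.022). The call was lost in 5 of 14 alternatives, with DESeq2 (adjusted p = 0.0521) and without DMSO replicate 1 or 2 or doxycycline replicate 1 or 2 (0.0555 to 0.0871). SCARNA13 (log2 fold change 0.94, adjusted p = 0.246), SNORA70 (-0.69, 0.213), SCARNA16 (0.27, 0.689), SCARNA10 (0.13, 0.736) and SNORA63 (0.05, 0.949) did not pass. The median log2 fold change was 0.09 over the members and 0.04 over all genes.

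Whether a line responded differently from another was tested as the difference between their log2 fold changes. Against EV, the shAMB effect was larger for SCARNA16 by 3.60 (adjusted p = 0.000281), for SCARNA13 by 2.26 (0.0259), for SCARNA12 by 1.66 (5.45e-05) and for SCARNA9 by 1.55 (0.0162), and it was lower for SNORA70, at -2.33 (0.00542). These were 5 of 8 members, beside 48.6% of all genes, and the 4 higher ones stand beside 31.6%. SCARNA16 entered these tests only through the group in which it was high, in this and in the shAMB comparison. The sh4 effect differed from EV for SCARNA9, by 1.36 (adjusted p = 0.0396, beside 35.2% of all genes called and 23.3% called higher), and that call was lost in 15 of 20 alternatives, at adjusted p of 0.0506 to 0.0992, and on leaving out any single EV library. With TMM, which lost it, SCARNA12 was called instead, at -0.70 (adjusted p = 0.0394), and with DESeq2's size factors both were called. SCARNA13 in shAMB against EV was lost without EV DMSO replicate 1 (difference 1.79) or EV doxycycline replicate 2 (2.12), and SCARNA9 without EV DMSO replicate 3 (1.35). All 3 differences share libraries with one another.

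The 2 hairpins differed from each other for 3 members, all lower in sh4, beside 62.1% of all genes called and 36.5% called lower. The sh4 effect minus the shAMB effect was -3.33 for SCARNA16 (adjusted p = 0.000602), -2.28 for SCARNA12 (1.51e-06) and -2.08 for SNORA73A (0.0121), which without shAMB doxycycline replicate 2 was -1.66 and not called. SCARNA16 entered this comparison too only through the group in which it was high. SCARNA12 fell in one line and rose in the other, and SNORA73A fell in sh4 and was called in no other line. Against EV, neither fall in sh4 was called as a difference in the main fit. It was -0.62 for SCARNA12 (adjusted p = 0.0684) and -1.32 for SNORA73A (0.1245), which was at -0.86 in EV.

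Members called in shAMB were picked for their change and their hosts were not, so that larger member values follow in part from this choice. The hosts of these members had log2 fold changes of smaller size in shAMB, a difference that was not tested. There, SNHG20 rose by a log2 fold change of 0.25 (adjusted p = 0.0313) around SCARNA16 at 3.60, CEP295, a centriole protein gene, rose by 0.31 (0.00026) around SCARNA9 at 1.73, PHB2, a prohibitin gene, was at 0.14 (0.349) around SCARNA12 at 1.75, and SNHG10 was at 0.14 (0.113) around SCARNA13 at 1.83. With other scalings SNHG20 and CEP295 kept their sign but were no longer called, at 0.06 to 0.09 and 0.13 to 0.16. RPL10, a large-subunit ribosomal protein gene, was at 0.10 (adjusted p = 0.416) while SNORA70 fell by 1.95. In the main scaling, called members had the sign of their host in 4 of 5 cases in shAMB and in 3 of 3 in sh4. Over all 8 tested pairs 6 and 5 had it. The shAMB count depends on the scaling, as PHB2 and SNHG10 were near 0 and not called. NCAPD2, the host of SCARNA10, was at the same 0.14 and turned sign with TMM and with DESeq2's size factors.

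SNHG3, the host of the U17 pair, fell in both hairpin lines and in the xenografts, while SNORA73A was called in sh4 alone. SNHG3 was at 118, 109 and 106 CPM with DMSO and at 38.8, 39.2 and 38.3 CPM with doxycycline in the sh4 line, with no overlap, and fell by 1.52 on the log2 scale (SE 0.0421, adjusted p = 1.17e-12), beside SNORA73A at -2.19. In the shAMB line SNHG3 fell from 111, 106 and 110 to 53.8, 51.0 and 55.3 CPM, a log2 fold change of -1.03 (adjusted p = 1.68e-11), with SNORA73A at -0.11. In the xenografts labelled knock-out it fell by 1.03 (adjusted p = 8.74e-05), with SNORA73A at -0.18 (0.603) and SNORA73B at -0.07 (0.874).

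**Figure D4:**
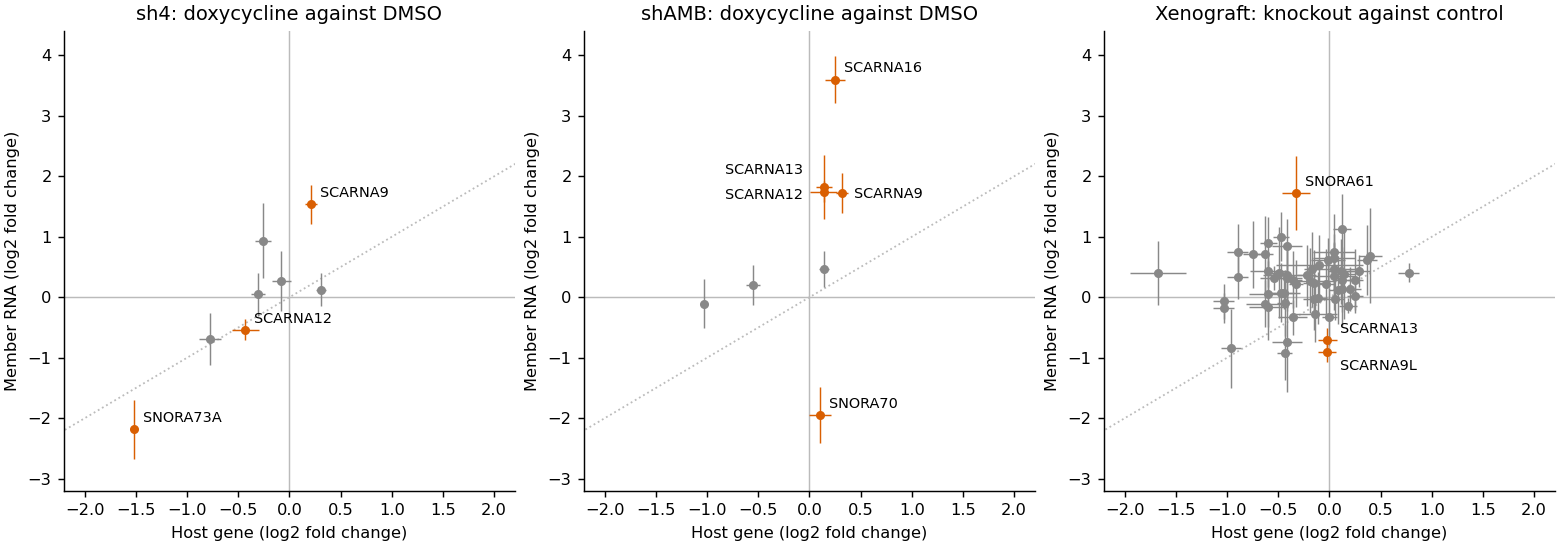
Log2 fold change of each member (vertical axis) against that of its host gene (horizontal axis), with standard errors, for sh4 (left), shAMB (middle) and the xenografts (right); the dotted line marks equal change and orange marks members with an adjusted p under 0.05. SCARNA16 stands at 3.60 over a host at 0.25 in shAMB, and the Spearman correlation across pairs was 0.833 in sh4 and 0.738 in shAMB (8 pairs each) and 0.103 in the xenografts (60 pairs).

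In the xenografts 64 members could be tested, 50 SNORA and 14 SCARNA, and 3 differed between tumours labelled knock-out and control, beside 42.8% of 15958 genes tested. SCARNA9L and SCARNA13 were lower (2 members, beside 14.8% of all genes), and SNORA61 was higher (1 member, beside 28.0%). SNORA61 passed the filter on low counts through the knock-out group, as 4 knock-out but only 1 control library reached the cutoff of 0.210 CPM. The median log2 fold change over members was 0.29, with 47 above 0 and 17 below, and over all genes it was 0.14. With TMM computed without small RNA genes the median over all genes was 0.00. The member median is not given here for that scaling, so that 0.29 is to be read beside 0.14. An unadjusted p under 0.05 was found for 5 members, the others being SCARNA7 at 0.40 (adjusted p = 0.0645) and SNORA21 at 1.00 (0.0734). The culture and the xenograft comparisons were fitted in separate tables.

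SCARNA9L was at 16.5, 15.4, 12.5 and 15.7 CPM in control tumours and at 10.3, 7.84, 7.11 and 6.77 CPM in tumours labelled knock-out. It was the only tested member whose groups did not overlap, beside 39.7% of all genes, and fell by 0.91 on the log2 scale (SE 0.163, adjusted p = 0.00169). Scaled by other small RNAs the log2 fold change was larger in size, at -1.13, but not called (adjusted p = 0.151), in a fit that called 5.80% of all genes. Its near copy SCARNA9 was at 36.7, 29.6, 28.6 and 27.6 CPM and at 28.9, 25.6, 24.3 and 32.6 CPM, with overlapping groups and a log2 fold change of -0.14 (adjusted p = 0.41). EIF1AX, the translation initiation factor gene around SCARNA9L, was at -0.02 (adjusted p = 0.85).

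SCARNA13 was at 97.5, 102, 77.2 and 69.6 CPM in control and at 52.6, 39.8, 44.3 and 75.3 CPM in knock-out tumours. Knock-out replicate 4 lay within the control range and the other 3 below it, and the level fell by 0.71 on the log2 scale (SE 0.20, adjusted p = 0.0174), while its host SNHG10 was at -0.02. The call was lost without knock-out replicate 2 (-0.59) or replicate 3 (-0.63, adjusted p = 0.0529), with the replicate block (-0.73, 0.0513) and when scaled by other small RNAs (-0.94, 0.336). In shAMB cells the same RNA had risen. SNORA61, of low level, had 8, 14, 6 and 7 counts in control tumours (0.177, 0.362, 0.116 and 0.126 CPM) and 11, 13, 44 and 55 in knock-out tumours (0.234, 0.269, 0.786 and 1.22 CPM). Only replicates 3 and 4 exceeded all controls, and the log2 fold change of 1.72 (SE 0.611, adjusted p = 0.0452) lost its call in 11 of 16 alternatives, among them all 3 scalings by TMM or size factors (1.57 to 1.62) and the fit without knock-out replicate 4 (1.19).

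The abundant members did not pass the test. SNORA73A was at 937, 1312, 665 and 920 CPM in control and at 858, 506, 859 and 1162 CPM in knock-out tumours, with overlap. SCARNA10 was at 802, 1207, 460 and 695 CPM and at 690, 583, 648 and 1772 CPM, and the last library stood far above the rest of its group. SNORA63 was at 189, 305, 85.9 and 105 CPM and at 125, 82.6, 193 and 448 CPM, again with overlap. Their log2 fold changes were -0.18 (adjusted p = 0.603), 0.22 (0.676) and 0.31 (0.672), with 95% intervals of -0.75 to 0.39, -0.64 to 1.09 and -0.88 to 1.5. SCARNA16 at 0.43 (adjusted p = 0.556), SCARNA12 at 0.32 (0.233) and SNORA70 at 0.08 (0.845), all called in shAMB cells, were not called here.

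Levels varied widely between single tumours. Over the 49 members with a mean of at least 1 CPM, the highest library exceeded the lowest 1.51-fold (SCARNA9) to 13.7-fold (SNORA9), with a median of 4.82-fold. Knock-out replicate 4 was the highest library for 50 of the 80 members with a count in every library, at a median of 1.92 times the member's median. Control replicates 3 and 4 and knock-out replicate 2 were the lowest for 20, 24 and 24 of these members. The SNORA sum was 2021, 2686, 1245 and 1769 CPM in control and 1695, 1043, 1882 and 2847 CPM in knock-out tumours, and the SCARNA sum 1488, 2113, 1004 and 1231 and 1436, 1134, 1269 and 2865 CPM, with wide overlap in both. Without knock-out replicate 4, 3 members were again called, all lower, beside 41.1% of all genes in that fit. These were SCARNA9L at -0.83 (adjusted p = 0.004), SCARNA13 at -0.92 (0.00138) and SNORA12 at -1.55 (0.00524).

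**Figure D5:**
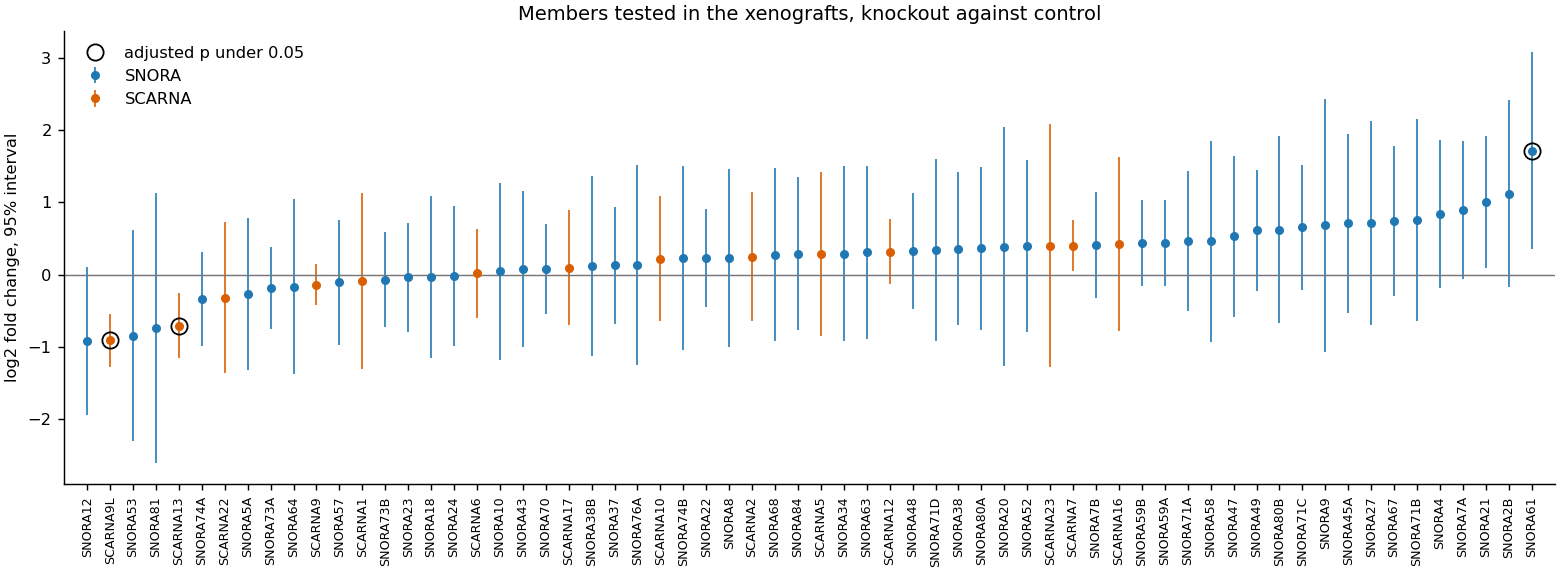
Log2 fold change with its 95% interval of each of the 64 members tested in the xenografts, tumours labelled knock-out against control, ordered by value, in blue for SNORA and orange for SCARNA, with rings around the 3 members with an adjusted p under 0.05. The intervals of most members are wide and cross 0, and the values run from -0.92 (SNORA12) to 1.72 (SNORA61).

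The proteins that bind, build and trim these RNAs were read as lists written by hand. Among the 4 H/ACA core proteins, sh4 cells had NHP2 lower (-0.23, adjusted p = 0.041), shAMB cells DKC1, the pseudouridine synthase, higher (0.21, 0.00199) and GAR1 lower (-0.34, 0.000216), and knock-out xenografts NHP2 (-0.57, 0.00783) and NOP10 (-0.30, 0.0165) lower. The value of DKC1 equals the median of all genes, and with TMM it was 0.05 (adjusted p = 0.491). GAR1 was at 64.1, 65.7 and 63.8 CPM with DMSO and 51.3, 51.6 and 49.8 CPM with doxycycline in shAMB, with no overlap.

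Of 12 assembly factors tested, 1 was higher and 3 were lower in sh4, 4 and 4 in shAMB, and 0 and 3 in the xenografts, and of all genes 28.1% and 14.7%, 46.0% and 22.8%, and 28.0% and 14.8% were higher and lower there. SHQ1, which holds DKC1 before assembly, fell in shAMB (-0.68, adjusted p = 1.88e-08) and in the xenografts (-0.45, 0.00177). NOLC1, a nucleolar and Cajal body phosphoprotein, fell in all 3 (-0.62, -0.10 and -0.27). Of 19 Cajal body and telomerase genes tested in culture, 3 were higher and 2 lower in sh4, 6 and 4 in shAMB, and of 20 in the xenografts 4 and 2. WRAP53, which carries CAB box RNAs to Cajal bodies, rose in shAMB (0.64, adjusted p = 0.00016), as did TERT, the telomerase reverse transcriptase (1.48, 0.000669), while GEMIN5, of the SMN complex, fell under all 3 conditions (-0.11, -0.74 and -0.66).

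Of 25 genes for the trimming and decay of such RNAs, 13 were higher and 2 lower in sh4, 11 and 9 in shAMB, and 7 and 5 in the xenografts. The shares of all genes higher and lower were 28.1% and 14.7% in sh4, 46.0% and 22.8% in shAMB, and 28.0% and 14.8% in the xenografts. PARN, which trims the 3′ ends of H/ACA RNAs, rose in sh4 (0.32, adjusted p = 0.000139) but fell in shAMB (-0.63, 6.64e-08) and the xenografts (-0.50, 0.000942). Of the 4 box C/D core proteins, 0 were higher and 2 lower in sh4, 2 and 0 in shAMB, and 2 and 2 in the xenografts, and NOP56 in shAMB, at 0.17, was at -0.02 with DESeq2's size factors. In EV, of the 64 genes of these lists, edgeR called 0 and DESeq2 0, with 2 at an unadjusted p under 0.05, whereas edgeR called 27 in sh4 and 42 in shAMB, 42.9% and 68.8% being the shares of all genes. In the xenografts it called 27 of 65, beside 42.8%.

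The median log2 fold changes of these lists were read beside those of all genes tested, which were 0.00 in EV cells, 0.04 for sh4, 0.21 for shAMB and 0.14 for xenografts. In the same order they were 0.03, -0.05, -0.12 and -0.27 for the H/ACA core, 0.06, -0.13, 0.05 and -0.03 for assembly, and -0.06, 0.01, 0.03 and 0.05 for Cajal body and telomerase genes. They were -0.04, 0.14, 0.07 and -0.01 for trimming and decay, and 0.09, -0.20, 0.11 and -0.05 for the box C/D core.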

How the data were processed

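The authors deposited 2 tables of RSEM expected counts (estimates, not always whole numbers) and 2 of TPM, for 18 culture and 8 xenograft libraries. The submitters' processing notes name STAR, SAMtools, RSEM and hg38, and whether counting used strand is not given in the sources used here. The labels name polyA RNA, yet the kit is SMARTer Stranded Total RNA-seq v2, and which holds is not settled. Total counts were 35115915 to 54736733 in culture and 47346063 to 62378060 in the xenografts. Culture columns marked Neg were taken for DMSO and those marked Pos for doxycycline, from these words alone.

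Counts were rounded and fitted with edgeR 4.0.16 in R 4.3.3 (filterByExpr; quasi-likelihood F test, two-sided; Benjamini-Hochberg over all genes tested). Library size was the total without 2437 small RNA genes, and CPM uses it. The 18 culture libraries entered 1 fit and the xenografts another. A gene is called at an adjusted p under 0.05. Alternatives were TMM, DESeq2's size factors (RLE), totals of all genes, no filter, DESeq2 1.42.0, a replicate block, only the groups compared, each library left out, and, chosen after seeing the data and run in the xenografts only, scaling by other small RNAs. The fits were checked on simulated counts. No replicate columns were identical, and each counted once. TPM served only for shares. Host genes are from GENCODE 44, loci and sequences from RefSeq (GRCh38).

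The members and lists were chosen with earlier results of these data known. Named are, by rule, members that are high or called, the most abundant SCARNA members, their hosts and listed proteins. SNORA61 and the members called only in an alternative were named after their values were seen.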

Additional observations from a re-analysis of the deposited data

Results flagged for a closer look

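Among the 4 tumours labelled knock-out, replicate 4 stood apart from the other 3 for 5 Cajal body RNAs. It was at 1772 CPM for SCARNA10, where replicates 1 to 3 were at 690, 583 and 648. For SCARNA5 it was at 325 CPM beside 105, 87.8 and 96.2, and for SCARNA16 at 135 CPM beside 39.6, 25.3 and 37.9. For SCARNA7 it was at 282 CPM beside 207, 202 and 193, and for SCARNA22 at 2.69 CPM beside 0.892, 0.931 and 1.2. Each gap exceeded Dixon's 95% critical value as a share of the group's range. A total of 40 groups of 4 values were examined, and chance passes this limit in about 1 of 20 independent groups. The groups examined share libraries and are not independent, and all 5 that passed rest on the same library.

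The response to doxycycline differed between lines, by a test of the difference itself, for 9 pairs of member and lines, 5 of 8 members for shAMB against EV, 1 for sh4 against EV and 3 for sh4 against shAMB, beside 48.6%, 35.2% and 62.1% of all genes. The shAMB response exceeded that of EV by a log2 value of 3.60 for SCARNA16, 2.26 for SCARNA13, 1.66 for SCARNA12 and 1.55 for SCARNA9, and for SNORA70 the difference was -2.33. The sh4 response exceeded that of EV by 1.36 for SCARNA9, a call lost in 15 of 20 alternatives. The sh4 response minus that of shAMB was -3.33 for SCARNA16, -2.28 for SCARNA12 and -2.08 for SNORA73A. SCARNA16 passed the filter on low counts only through the shAMB doxycycline group, in which it was high.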

How the results depend on the processing

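In shAMB the calls of SCARNA12, SCARNA13, SCARNA16, SCARNA9 and SNORA70, and in sh4 those of SCARNA9 and SNORA73A, were kept under all alternatives that tested them. These were 14 for each SCARNA member and 13 for SNORA70 and SNORA73A in culture, where scaling by other small RNAs was not run. With only the groups compared, SNORA70 in shAMB and SNORA73A in sh4 were too low to be tested. That fit called 4 of 6 members in shAMB, beside 72.6% of all genes, and 2 of 5 in sh4, beside 29.3%. SCARNA16 passed the filter on low counts only through the shAMB doxycycline group, in which it was high. Without the filter 9 of 92 members tested were called in shAMB, beside 51.0% of all genes. For the difference between sh4 and EV, 1 member was called, beside 35.2% of all genes. The count was 2 with DESeq2's size factors (31.7% of all genes). It was 0 without the filter (23.2%), with DESeq2 (35.2%), with the replicate block (34.2%) or with only the groups compared (30.4%). With a library left out it was 0 to 2, beside 28.3% to 51.5% of all genes. In the xenografts, with 3 called, the count was 5 with DESeq2 (46.7% of all genes), 0 when scaled by other small RNAs (5.80%), and 1 to 5 with a library left out: 5 without knock-out replicate 1 (45.4%) and 1 without knock-out replicate 3 (36.2%). SCARNA13 there was lost in 4 of 16 alternatives and SCARNA9L in 1 (-1.13, adjusted p = 0.151). SCARNA13 and SCARNA9 in the difference between shAMB and EV were lost in 2 and 1 of 20. The causes were not tested. Signs turned in shAMB for NCAPD2 (-0.0138 and -0.0131 with TMM over all genes and without small RNA genes, -0.0442 with DESeq2's size factors), and with those size factors for NOP56 (-0.019) and RUNX1T1 (-0.0198).

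Replicate numbers are shared in the labels, but deviations of same-numbered libraries did not all correlate above 0.1 (-0.664 to 0.159 in culture, -0.544 to 0.394 in the xenografts), so that they were not treated as pairs. With the replicate block 1 member was called in the xenografts, SCARNA9L, beside 33.0% of all genes.

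Other scalings move the share of higher calls over all genes from 66.9% to 52.8% (TMM) or 50.2% (DESeq2's size factors) in shAMB, from 65.6% to 50.6% in sh4 and from 65.5% to 43.8% in the xenografts. Depth limits the culture results: 97 of 105 members were too low there to be tested.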
